A study of Mus musculus with 24 samples.

Results

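The comparison described here is between 2 short hairpin RNAs against the same gene. SCC25, a human oral squamous carcinoma line, carried shEGR2_38.9 or shEGR2_40.9 and was grown as orthotopic tumours in immunodeficient NSG mice on a control diet. RNA of what the labels call the neural fraction of the tumour stroma was then read on mouse arrays. Each hairpin had 3 arrays on this diet, so the comparison rests on 6 of the 24 arrays of the series, and every gene that passed a filter on dim signal was compared, 11844 of 17097. Differences are shEGR2_38.9 minus shEGR2_40.9 on the log2 scale, where 1 is a doubling, with the standard error (SE) of the fit. A gene is called at an adjusted p under 0.05 in limma, with the Benjamini-Hochberg adjustment over all 11844 genes, and every adjusted p below comes from such a fit. The non-targeting hairpin PLKO on the control diet (3 arrays) and the same 2 EGR2 hairpins on a diet rich in palmitic acid, the PA-rich diet (3 arrays each), are set beside it. What all these groups share is the tumour line, the host strain and the isolation of the fraction.

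Within each group the 3 arrays are called technical replicates in the series' design, and whether they came from separate mice is not stated. A p-value here thus covers the spread between arrays and nothing more, and that spread may be technical. The hairpins were in the human tumour cells while the arrays carry mouse probe sets, so the knockdown itself was not measured, and binding of human transcripts to mouse probes was not tested. Replicate 3 of shEGR2_38.9 stood apart. The 3′ minus 5′ difference of its Gapdh control probe sets, a sign of RNA quality, was 0.76 (log2), while the other 23 arrays ran from -0.12 to 0.08. For the beta-actin control it lay out of range the other way, at -0.44 against -0.26 to -0.06. Its mean log2 value over all probe sets was 7.09, against 7.15 to 7.17, and its median 6.71, against 6.76 to 6.81. Its mean correlation with its own group was 0.978, against 0.986 to 0.996. Results are therefore given with and without it. The labels give scan batches, and the hairpins shared only scan batch 3 on the control diet, which held replicate 3 of both and so included the array that stood apart.

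EGR2 is a zinc finger transcription factor best known for driving myelination in Schwann cells, the glia of peripheral nerve. In stratified epithelium such as oral mucosa and skin, basal keratinocytes make Krt5 and Krt14. As they move up they switch to other keratins and then assemble a cornified envelope from small proline-rich proteins, cross-linked by transglutaminases and sealed with specialised lipids. Interferon signals act through STAT and IRF factors on a short promoter element, and the genes so induced block the spread of viruses.

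The hairpins differed most in genes of epidermal differentiation, part of which were lower with shEGR2_38.9. Some vessel markers and part of the interferon response were higher with it. With all arrays 1408 genes were called (11.9% of those tested), 512 higher (4.32%) and 896 lower (7.57%) with shEGR2_38.9. Without replicate 3 of shEGR2_38.9 1219 were called (10.3%), 569 higher (4.8%) and 650 lower (5.49%), so the lower share of the calls went from 63.6% to 53.3%. The median difference of all genes was -0.04 with all arrays and -0.01 without that replicate. Both fits called 915 genes in the same direction, 65.0% of the first set and 75.1% of the second, and 0 in opposite directions. The 493 genes called only with the replicate present were mostly lower (358), and the 304 called only in its absence were mostly higher (192). Of the genes called with all arrays, 67 differed by more than 1, 14 higher and 53 lower, and 66 of these were also called without the replicate. The 3 arrays of the hairpins did not overlap for 21.3% of genes, 7.38% higher and 13.9% lower. Against PLKO, shEGR2_38.9 gave calls for 30.4% of genes (11.2% higher, 19.1% lower) and shEGR2_40.9 for 12.1% (7.19% higher, 4.94% lower), on shared PLKO arrays.

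**Figure D1:**
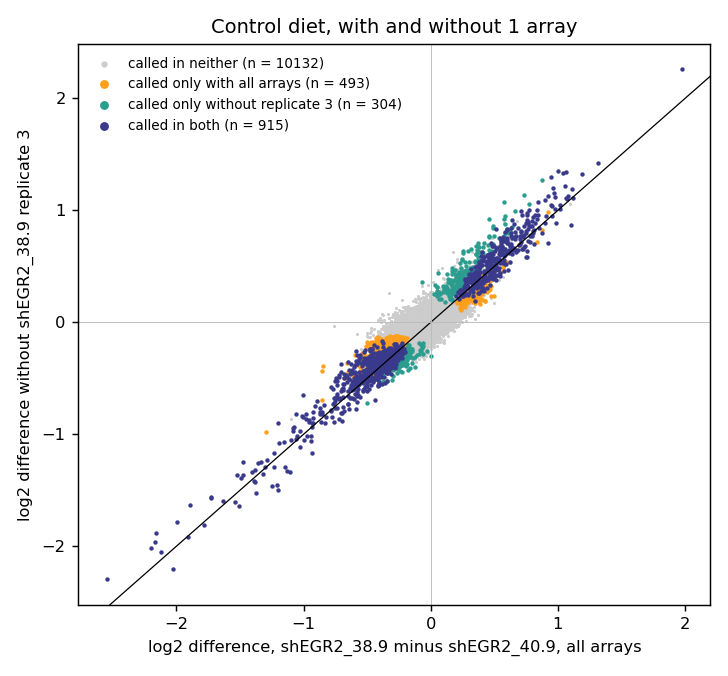
Log2 difference between the hairpins on the control diet for each of 11844 genes, with all arrays (horizontal) and without replicate 3 of shEGR2_38.9 (vertical), coloured by which fit called the gene; the line marks equal values. The 915 genes called in both fits lie in 2 arms along the line, and the largest differences belong to the lower arm.

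These counts had 2 limits. Without replicate 2 of shEGR2_40.9 822 genes were called and without its replicate 3 863, and a fit on the 6 arrays alone called 299 (2.52% of genes), 119 higher (1%) and 180 lower (1.52%). Renewed quantile normalization split the calls evenly, 678 higher and 672 lower.

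The gene lists were chosen with earlier results of these data known, so counts of their members describe and do not test. The list of suprabasal keratinocyte and barrier genes had 21 of its 23 members tested. With shEGR2_38.9 15 of them fell and 0 rose, against 7.57% of all genes that fell. Their median difference was -1.23, against -0.04 for all genes. The same count and median were found without replicate 3, and 15 fell with scan batch as a block (8.22% of all genes did). The mean level over all 23 members, the dim ones included, lay between 9.09 and 9.31 in the shEGR2_38.9 arrays and between 10.07 and 10.16 in the shEGR2_40.9 arrays. PLKO arrays lay between 9.98 and 10.45. The low group was thus shEGR2_38.9, and the shEGR2_40.9 arrays lay within the PLKO range. The 6 tested members that were not called are Krt1, Krt6a, Krt16, Ivl, Lor and Sprr2d, with differences from -0.27 for Krt1 to 0.42 for Sprr2d. In these bulk samples fewer cells of a type and less RNA per cell cannot be told apart.

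No such shift was called among basal keratinocyte genes. All 10 members were tested, 0 were called in either direction by limma (0 also with the 6 arrays alone and with scan batch as a block), 1 (Cdh3) had an unadjusted p under 0.05, and their median difference was -0.12, or 0.03 without replicate 3. Krt5 and Krt14, the keratin pair of the basal layer, differed by -0.13 (SE 0.10, adjusted p = 0.45) and -0.02 (SE 0.06, adjusted p = 0.842); both were picked for display after their values were seen. Krt5 read 12.97, 12.91 and 12.43 with shEGR2_38.9 and 12.87, 12.94 and 12.87 with shEGR2_40.9. The third value of shEGR2_38.9 is the array that stood apart, and the groups overlapped.

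The desmosomal cadherin genes Dsc1 and Dsg1a were among the members that fell. Dsc1, which encodes desmocollin 1, a cadherin of the desmosomes of upper epidermis, read 7.01, 7.13 and 6.32 with shEGR2_38.9, 9.58, 9.17 and 9.34 with shEGR2_40.9, and 8.83, 8.71 and 8.35 with PLKO. All shEGR2_38.9 arrays lay below all others, and the difference was -2.54 (SE 0.20, 5.83-fold lower, adjusted p = 8.1e-09), or -2.29 without replicate 3 (adjusted p = 9.3e-08). A further probe set of the gene gave -3.34. Dsg1a, a desmoglein that pairs with it, fell by 1.40 (SE 0.11, adjusted p = 6.0e-09), from 10.24, 10.49 and 10.38 with shEGR2_40.9 to 8.98, 9.09 and 8.84.

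Of the 8 keratins tested on the list, 5 fell by unequal amounts and 3 were not called. Krt10, the keratin that marks entry into the spinous layer, read 8.76, 9.14 and 8.17 with shEGR2_38.9 and 10.51, 10.73 and 10.49 with shEGR2_40.9, a difference of -1.89 (SE 0.23, adjusted p = 8.7e-06). PLKO lay between them at 9.56 ± 0.47 (SD, n = 3). Krt10 was 0.88 lower than PLKO with shEGR2_38.9 (difference -0.88, adjusted p = 0.0068) and 1.02 higher with shEGR2_40.9 (adjusted p = 0.0054), comparisons that share the PLKO arrays. Without replicate 3 of shEGR2_38.9 the difference of that hairpin from PLKO was -0.62 and was not called (adjusted p = 0.0631). Krt4 and Krt13, the pair of keratins of the inner oral lining, fell by 1.37 (adjusted p = 6.5e-05) and 0.49 (adjusted p = 6.0e-05). Krt6b, a keratin of activated and oral epithelium, fell by 1.20 (adjusted p = 2.1e-05), and Krt84, a hair-type keratin, fell by 1.47 (adjusted p = 6.6e-06). Krt10, Krt84 and Krt6b were lowest in replicate 3 of shEGR2_38.9, and their falls were 1.63, 1.25 and 0.90 without it. Krt1, the partner of Krt10, differed by -0.27 (adjusted p = 0.344), and Krt6a and Krt16, keratins of activated epithelium, by -0.16 (adjusted p = 0.189) and -0.05 (adjusted p = 0.714).

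Genes of the cornified envelope were split between members that fell and members that were not called. Sprr1b, a small proline-rich envelope precursor, read 8.33, 8.72 and 8.93 with shEGR2_38.9 and 10.32, 10.10 and 10.08 with shEGR2_40.9, and fell by 1.51 (SE 0.14, adjusted p = 2.1e-07). Its neighbour in the same protein family, Sprr1a, fell by 1.32 (adjusted p = 1.1e-07). Tgm3, a transglutaminase that cross-links the envelope, fell by 1.29 (SE 0.09, adjusted p = 3.2e-09), with 10.57, 10.56 and 10.38 against 11.84, 11.72 and 11.81. Cnfn, which encodes cornifelin, fell by 1.73 (adjusted p = 1.9e-08), and Krtdap, a secreted product of differentiating keratinocytes, by 1.23 (adjusted p = 4.1e-08). The groups did not overlap for any of these 5 genes, which were all called, while 13.9% of all genes were lower without overlap. Tgm1, the other envelope transglutaminase on the list, fell by only 0.30 (adjusted p = 0.0022) and was not called with the 6 arrays alone (adjusted p = 0.176). Sbsn, encoding suprabasin, fell by 0.28 (adjusted p = 0.019), a call lost under renewed quantile normalization (adjusted p = 0.155), median centring (0.0551) and with the 6 arrays alone (0.329). The envelope precursor genes Lor, Ivl and Sprr2d, for loricrin, involucrin and a small proline-rich protein, differed by 0.20 (adjusted p = 0.91), -0.17 (adjusted p = 0.423) and 0.42 (adjusted p = 0.492).

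Barrier lipid enzymes were among the genes with the largest falls. Alox12b, the 12R-lipoxygenase that oxidises barrier ceramides, read 9.18, 9.20 and 8.58 with shEGR2_38.9, 11.17, 11.14 and 11.15 with shEGR2_40.9 and 10.65, 10.81 and 10.67 with PLKO. It fell by 2.17 (SE 0.16, 4.49-fold, adjusted p = 3.9e-09), and by 1.96 without replicate 3. Sdr9c7, a dehydrogenase of the same lipid pathway, fell by 1.78 (SE 0.13, adjusted p = 3.2e-09), with 7.55, 7.28 and 7.51 against 9.25, 9.24 and 9.19. Sptssb, a small subunit of the enzyme that starts sphingolipid synthesis, fell by 1.99 (SE 0.32, adjusted p = 1.9e-04), and its shEGR2_38.9 level was under the dim filter level.

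**Figure D2:**
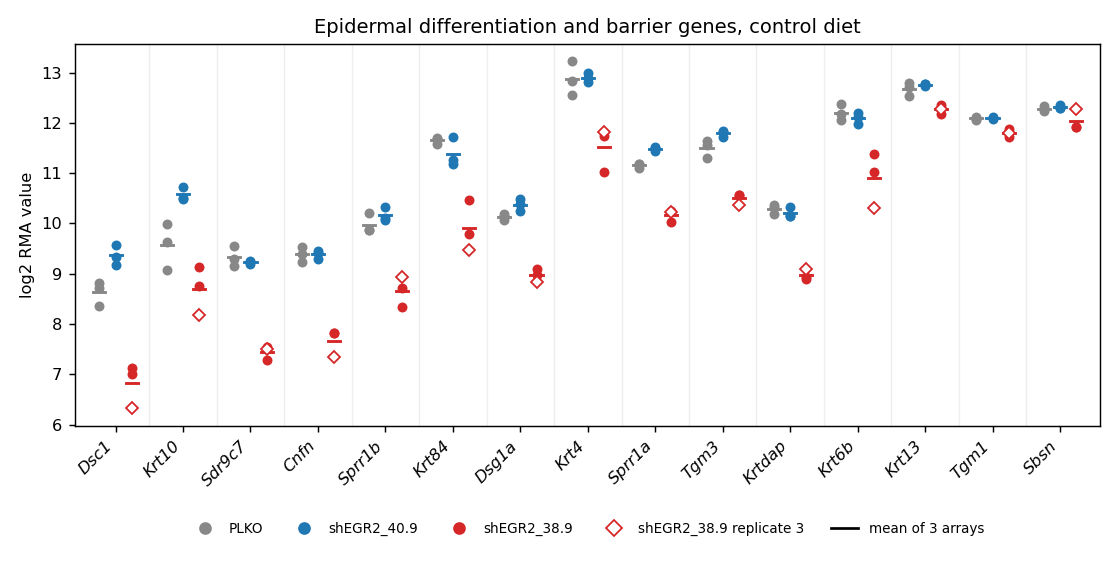
Log2 value of the 15 called differentiation and barrier genes in each control-diet array, with PLKO in grey, shEGR2_40.9 in blue and shEGR2_38.9 in red; the open diamond is replicate 3 of shEGR2_38.9 and bars are means of 3 arrays. The red points lie below the blue ones for all 15 genes, by 0.28 for Sbsn to 2.54 for Dsc1, and the diamond is not always the lowest red point.

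The 15 largest falls among genes called with and without replicate 3 ran from -2.54 to -1.52, and 4 of them were members of the lists. Besides Dsc1, Alox12b, Krt10, Sdr9c7, Cnfn and Sptssb they held Tchh (-2.20) and Scel (-1.52), which encode trichohyalin and the envelope protein sciellin, and Serpinb3a (-2.02), a protease inhibitor of squamous epithelium. They also held the glutathione transferase gene Gsta2 (-2.12), Ly6g6c (-2.16), Prr9 (-1.72), 2310011E23Rik (-1.91), the transketolase-like gene Tktl1 (-1.64) and Apol8 (-1.54). The shEGR2_38.9 level of Scel was under the dim filter level. All 15 were called as lower with scan batch as a block (8.22% of all genes were) and with the 6 arrays alone (1.52%). Both fits reuse arrays that picked the genes. The genes were also picked for groups that did not overlap, which fixed their sign in scan batch 3 in advance. PLKO lay between the hairpins for 13 of the 15. For Tktl1 and Apol8 the hairpin that differed from PLKO was shEGR2_40.9, 2.01 higher (adjusted p = 2.2e-08) and 1.39 higher (adjusted p = 2.3e-08), against 0.38 (adjusted p = 0.0602) and -0.14 (adjusted p = 0.328) for shEGR2_38.9. Both hairpins were called against PLKO for Dsc1, Ly6g6c, Gsta2, Krt10, Prr9 and Scel, shEGR2_38.9 as lower and shEGR2_40.9 as higher. Only shEGR2_38.9 was called, as lower, for Tchh, Alox12b, Serpinb3a, Sptssb, 2310011E23Rik, Sdr9c7 and Cnfn. Without its replicate 3 the shEGR2_38.9 call against PLKO was lost for Krt10, Prr9 and Sptssb (adjusted p = 0.0631, 0.0663 and 0.075).

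Promoters of this group were searched for the AP-1 element, since it is a common control element of differentiation genes. The search used TGANTCA on both strands, in RefSeq windows of 300 bases (GRCm38.p6) from 250 bases before the start site. Windows were found for 11 of the 15 called members, and 5 held the element (Krt13, Sprr1a, Sprr1b, Krtdap and Sbsn). Of the 6 tested members that were not called, 3 had a window and all 3 held it. Among all 32851 windows 7.81% did. The motif was chosen with the results known and describes letters only. The promoters of Sprr1b (chr3:92438730-92439029, minus strand) and Krtdap (chr7:30787655-30787954, plus strand) are shown as members that fell and hold 1 match each, in capitals, starting 111 and 81 bases before the start site.
Sprr1b: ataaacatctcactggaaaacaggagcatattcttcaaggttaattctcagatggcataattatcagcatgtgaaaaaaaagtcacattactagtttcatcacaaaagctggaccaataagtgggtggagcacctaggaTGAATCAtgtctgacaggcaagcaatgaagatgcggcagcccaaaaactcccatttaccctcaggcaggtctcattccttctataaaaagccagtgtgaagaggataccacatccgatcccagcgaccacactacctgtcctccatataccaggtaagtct
Krtdap: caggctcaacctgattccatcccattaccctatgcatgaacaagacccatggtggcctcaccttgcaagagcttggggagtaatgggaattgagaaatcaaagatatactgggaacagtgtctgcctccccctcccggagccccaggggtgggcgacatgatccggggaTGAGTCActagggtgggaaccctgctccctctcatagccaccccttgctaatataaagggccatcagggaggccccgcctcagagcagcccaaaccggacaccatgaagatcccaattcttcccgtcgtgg

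Part of the blood vessel markers were higher with shEGR2_38.9, by smaller amounts than most barrier genes were lower. Of 17 endothelial markers tested, 7 rose (Cdh5, Kdr, Tie1, Cldn5, Egfl7, Eng and Plvap) and 0 fell, against 4.32% of all genes that rose, and the median difference was 0.45. Without replicate 3 of shEGR2_38.9 8 rose (4.8% of all genes did) and the median was 0.50. The count depended on single arrays: 4 rose without replicate 1 of shEGR2_38.9 and 3 without its replicate 2, and 3 without replicate 2 or without replicate 3 of shEGR2_40.9. With the 6 arrays alone 4 rose and 1, Vwf, fell (1% and 1.52% of all genes). Within scan batch 3, with 1 array a hairpin, the median difference was 0.02. The mean level of all 18 markers lay between 8.77 and 9.37 with shEGR2_38.9, between 8.76 and 9.03 with shEGR2_40.9 and between 7.63 and 7.99 with PLKO, so the hairpin groups overlapped and both lay above PLKO.

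Cdh5, Cldn5 and Egfl7 were called in every alternative run. Cdh5, the cadherin of endothelial junctions, read 12.03, 12.02 and 12.15 with shEGR2_38.9, 11.49, 11.21 and 11.44 with shEGR2_40.9 and 10.12, 10.22 and 9.88 with PLKO. It rose by 0.69 (SE 0.16, 1.61-fold, adjusted p = 0.0058), or 0.64 without replicate 3 (adjusted p = 0.0257), and the 3 groups did not overlap. Cldn5, a claudin of endothelial tight junctions, read 8.55, 8.87 and 8.49 against 7.92, 7.72 and 7.89 and rose by 0.79 (SE 0.12, adjusted p = 8.3e-05). Egfl7, a secreted factor of vessel walls, rose by 0.75 (SE 0.12, adjusted p = 1.5e-04). Vwf, the clotting factor carrier of endothelium, went the other way and was picked after its values were seen: it read 8.36, 8.21 and 7.57 against 9.19, 9.15 and 9.11, a difference of -1.10 (SE 0.36) that was not called (adjusted p = 0.0505; 0.213 without replicate 3, 0.0316 with scan batch as a block and 0.0126 with the 6 arrays alone).

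Single genes from other lists or from the largest rises, known for roles in vessels, were also called as higher; they make up no list of their own. Sox7, a transcription factor of endothelium, rose by 1.02 (SE 0.12, adjusted p = 6.9e-06), with 9.57, 9.85 and 9.74 against 8.81, 8.52 and 8.77. Notch4, an endothelial Notch receptor, rose by 0.97 (SE 0.18, adjusted p = 9.5e-04) and its ligand gene Dll4 by 0.67 (SE 0.10, adjusted p = 5.1e-05). Notch4 was lowest of its 3 arrays in replicate 3, at 8.08 against 8.66 and 8.92, and still above the shEGR2_40.9 arrays at 7.67, 7.64 and 7.45. The Notch list as a whole split, with 3 of 12 tested members higher (Notch4, Dll4 and Hey1) and 3 lower (Notch2, Notch3 and Nrarp), against 4.32% and 7.57% of all genes. Nrarp, a feedback inhibitor of Notch signalling, fell by 0.60 (adjusted p = 8.1e-04), while the calls of Hey1, Notch2 and Notch3 were lost with the 6 arrays alone (adjusted p = 0.0816, 0.277 and 0.16), and that of Notch3 also without replicate 3 of shEGR2_38.9 (adjusted p = 0.055). Plxnd1, a semaphorin receptor of vessels, rose by 0.77 (SE 0.08, adjusted p = 1.4e-06), and Pgf, the placental growth factor that binds a VEGF receptor, by 1.04 (SE 0.15, adjusted p = 6.1e-05). Nid1, a basement membrane linker, rose by 0.73 (SE 0.13, adjusted p = 7.8e-04), and the growth factor genes Tgfb1 and Tgfb3 by 0.62 (adjusted p = 2.2e-04) and 0.98 (adjusted p = 0.0013).

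Lymphatic markers rose in part. Of 9 tested, 4 rose (Lyve1, Pdpn, Reln and Calcrl; 4.32% of all genes rose) and 0 fell, with a median of 0.51. Without replicate 3 of shEGR2_38.9 5 rose (4.8% of all genes did) with a median of 0.68: Flt4 and Nrp2 were then called, and Calcrl was not (adjusted p = 0.0834). Without replicate 2 of shEGR2_40.9 1 rose, and 2 rose without its replicate 3 or with the 6 arrays alone (1% of all genes with the 6 arrays). The lymphatic marker levels did not overlap between hairpins, at 10.07 to 10.39 with shEGR2_38.9 and 9.52 to 9.92 with shEGR2_40.9, and PLKO lay at 8.66 to 9.11. Reln, which encodes the matrix protein reelin of lymphatic endothelium and some neurons, read 10.22, 10.49 and 10.66 against 9.82, 9.29 and 9.30 and rose by 0.98 (SE 0.21, adjusted p = 0.003). Its call held in every alternative.

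Among the genes of immune cells, Mrc1, the mannose receptor of tissue macrophages and some endothelium, read 9.70, 9.89 and 9.69 with shEGR2_38.9, 9.06, 8.54 and 8.63 with shEGR2_40.9 and 7.34, 7.62 and 7.19 with PLKO. It rose by 1.01 (SE 0.16, adjusted p = 2.2e-04). It was the only macrophage marker called of 6 tested (4.32% of all genes rose and 7.57% fell), and Adgre1, C1qa, C1qb, Lyz2, Aif1, Tyrobp and Itgam were among those dropped as dim. The mean level of all 15 macrophage markers was 6.29 to 6.40 with shEGR2_38.9 and 6.12 to 6.29 with shEGR2_40.9, near the dim filter level of 6.27. Acod1, which makes itaconate in activated macrophages, had the largest rise of all at 1.97 (SE 0.27, 3.93-fold, adjusted p = 2.6e-05), with 9.44, 8.94 and 8.34 against 7.43, 6.56 and 6.81. The PLKO arrays read 8.11, 8.17 and 7.29, and overlapped with shEGR2_40.9 alone.

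The 15 largest rises among genes called with and without replicate 3 ran from 1.97 to 0.98, and PLKO had a mean below both hairpins for 13 of them. Besides Acod1, Sox7, Pgf, Mrc1, Reln, the interferon genes Rsad2 and Oasl1 and the genes Scn3a and Rgs4, they held Pald1 (1.11), an endothelial phosphatase-like gene, and Gimap4 (1.08), a GTPase gene of lymphocytes and vessels. They also held Slc7a7 (1.06), an amino acid transporter subunit gene, Bcl6b (1.00), a transcriptional repressor gene, Wscd1 (1.07) and Tmem140 (1.06). All 15 were called as higher with scan batch as a block (3.82% of all genes were). With the 6 arrays alone all but Bcl6b (adjusted p = 0.0896) were (1% of all genes). Both fits reuse arrays that picked the genes.

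The interferon response list had 13 members tested, of which 7 rose (Rsad2, Oasl1, Ifit3, Ifit1, Ifih1, Usp18 and Stat2) and 0 fell, against 4.32% of all genes that rose, with a median difference of 0.33. Without replicate 3 of shEGR2_38.9 7 also rose (4.8% of all genes did), with a median of 0.31, and 4 rose with the 6 arrays alone (1% of all genes). The mean level of the 14 members on the array lay between 9.04 and 9.23 with shEGR2_38.9 and between 8.50 and 8.69 with shEGR2_40.9, with PLKO between them at 8.72 to 8.83. The mean over these 14 members thus separated the 3 groups, but the members differed in where PLKO lay. That mean includes Ifit2, which was left out of the tests as dim over all arrays. Ifit2 had means of 8.24 with shEGR2_38.9, 6.34 with shEGR2_40.9 and 5.85 with PLKO, and the list mean without it was not taken.

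Rsad2, which encodes the antiviral enzyme viperin, read 12.32, 12.29 and 11.98 with shEGR2_38.9, 11.05, 10.88 and 10.73 with shEGR2_40.9 and 10.49, 10.44 and 10.49 with PLKO. It rose by 1.31 (SE 0.15, 2.49-fold, adjusted p = 2.5e-06). Oasl1, a regulator of antiviral translation, read 7.34, 7.57 and 7.49 against 6.53, 6.35 and 6.17 and rose by 1.12 (SE 0.11, adjusted p = 3.5e-07). For both, shEGR2_38.9 differed from PLKO (1.73, adjusted p = 1.4e-08; 0.84, adjusted p = 4.2e-06) and shEGR2_40.9 was not called (0.41, adjusted p = 0.073; -0.27, adjusted p = 0.113), comparisons that share the PLKO arrays. Ifit1, an RNA-binding antiviral protein gene, and Ifih1, which encodes the RNA sensor MDA5, rose by 0.77 (adjusted p = 3.1e-04) and 0.67 (adjusted p = 9.5e-05). For these it was shEGR2_40.9 that lay furthest from PLKO, at -1.31 (adjusted p = 5.4e-07) and -0.87 (adjusted p = 4.5e-06), against -0.54 (adjusted p = 0.0031) and -0.20 (adjusted p = 0.145) for shEGR2_38.9. Ifit3, a partner of Ifit1, read 9.46, 9.49 and 8.42 against 8.18, 8.27 and 8.10; its rise of 0.95 (SE 0.22, adjusted p = 0.0052) was 1.30 without replicate 3, and was not called with the 6 arrays alone (adjusted p = 0.0839). Usp18, a brake on interferon signalling, rose by 0.50 (adjusted p = 0.0118) and was not called with the 6 arrays alone (adjusted p = 0.108). Stat2, a transducer of the signal, rose by 0.33 (adjusted p = 0.0057), but its second probe set gave -0.08, and with probe sets averaged it was not called (adjusted p = 0.172).

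**Figure D3:**
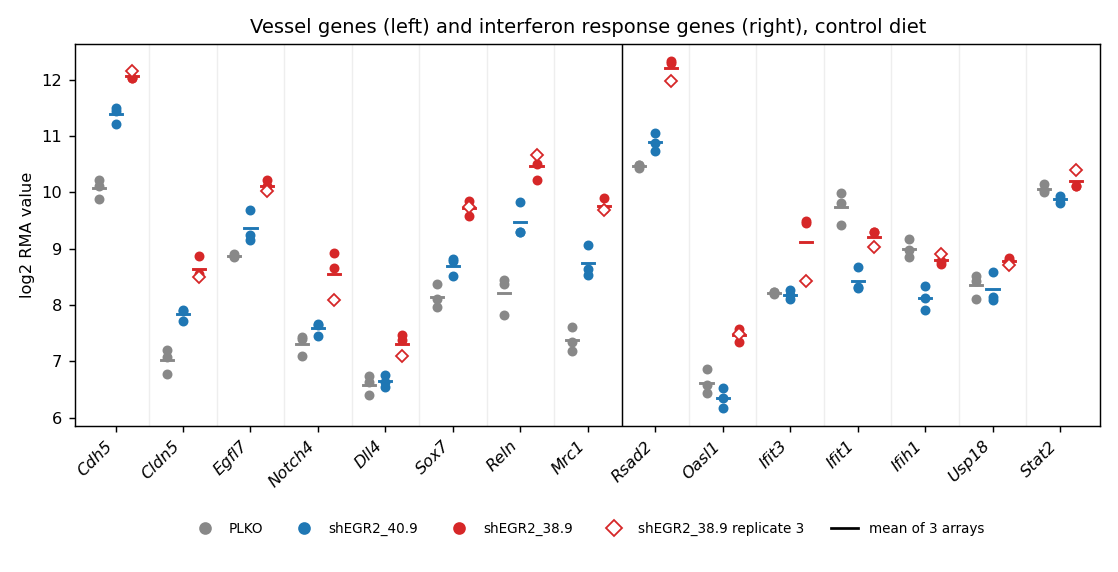
Log2 value of 8 vessel and macrophage genes (left) and the 7 called interferon response genes (right) in each control-diet array, with PLKO in grey, shEGR2_40.9 in blue and shEGR2_38.9 in red; the open diamond is replicate 3 of shEGR2_38.9 and bars are means of 3 arrays. Red points lie above blue ones throughout, while grey lies below both for Cdh5 and Mrc1 and above both for Ifit1.

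The interferon-stimulated response element was searched as GAAA, any 2 bases and GAAA again, on both strands in the same windows. Of the 6 of 7 called members with a window, 5 held it (Ifit1, Ifit3, Rsad2, Stat2 and Ifih1), as did 2 of the 4 uncalled members with a window (Ddx58 and Cxcl10) and 3.44% of all windows. Rsad2 (chr12:26456403-26456702, minus strand) had 1 match, starting 120 bases before the start site, and Ifit3 (chr19:34583279-34583578, plus strand) had 2, starting 156 and 122 bases before it. Both are printed since they were among the largest rises of the list, with the matches in capitals, read there from the opposite strand.
Rsad2: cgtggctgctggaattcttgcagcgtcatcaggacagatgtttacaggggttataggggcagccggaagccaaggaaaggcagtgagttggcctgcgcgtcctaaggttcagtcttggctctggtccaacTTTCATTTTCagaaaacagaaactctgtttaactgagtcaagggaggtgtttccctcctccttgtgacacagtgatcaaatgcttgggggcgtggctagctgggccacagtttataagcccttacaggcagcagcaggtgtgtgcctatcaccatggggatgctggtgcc
Ifit3: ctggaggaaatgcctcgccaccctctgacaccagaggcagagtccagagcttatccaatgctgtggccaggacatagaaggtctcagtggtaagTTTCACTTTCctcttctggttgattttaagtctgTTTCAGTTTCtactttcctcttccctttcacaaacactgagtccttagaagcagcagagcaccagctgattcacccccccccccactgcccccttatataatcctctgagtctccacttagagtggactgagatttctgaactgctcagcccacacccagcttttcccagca

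The labelled neural identity was weakly marked. Of the Schwann identity and myelin list, 7 members were tested, and S100b, Mag, Gjb1, Foxd3, Pou3f1 and Cldn19 were dropped as dim. Sox10, the lineage factor of glia, and Mbp, a myelin protein gene, differed by -0.04 (SE 0.10, adjusted p = 0.854) and -0.11 (SE 0.08, adjusted p = 0.403); both were named after their values were seen. The mean of its 13 members on the array lay between 7.43 and 7.52 with shEGR2_38.9 and between 7.45 and 7.57 with shEGR2_40.9. Erbb3, the neuregulin receptor of Schwann cells and epithelium, was its 1 call (7.57% of all genes fell), with 10.77, 10.67 and 10.55 against 11.00, 11.04 and 11.09, a fall of 0.38 (SE 0.07, adjusted p = 5.8e-04) not called with the 6 arrays alone (adjusted p = 0.1). Mouse Egr2 itself read 11.36, 11.44 and 11.96 with shEGR2_38.9 and 11.37, 11.54 and 11.56 with shEGR2_40.9, a difference of 0.10 (SE 0.11, adjusted p = 0.598) that was -0.09 without replicate 3 (adjusted p = 0.606), and its second probe set gave -0.20. Gal, the galanin gene, differed by 0.11 (adjusted p = 0.514).

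Of 8 neuronal genes tested 3 rose, Scn3a, Gap43 and Dpysl3, and Map2 fell (4.32% and 7.57% of all genes), while Nefl, Nefm, Nefh, Snap25, Syt1 and Elavl4 were dropped as dim. Scn3a, a sodium channel gene, read 9.58, 9.57 and 9.18 with shEGR2_38.9, 8.71, 8.09 and 7.95 with shEGR2_40.9 and 5.77, 6.45 and 5.77 with PLKO, and rose by 1.19 (SE 0.20, adjusted p = 4.3e-04). Gap43, a growth cone protein gene, read 10.70, 10.71 and 10.57 against 10.19, 9.47 and 9.62 and rose by 0.90 (SE 0.16, adjusted p = 5.7e-04). Both rose beside the vessel markers, and the part of other cell types in these values was not tested. Dpysl3, a protein gene of axon growth, rose by 0.65 (adjusted p = 0.0047), and Map2, a dendrite microtubule protein gene, fell by 0.72 (adjusted p = 9.98e-04), a call lost with the 6 arrays alone (adjusted p = 0.0814). Nrg1, the Schwann cell growth factor neuregulin, fell by 0.57 (SE 0.11, adjusted p = 0.0017) in all alternatives.

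Lipid and redox genes shifted less. Of 17 sterol and lipid synthesis genes 6 fell and 1, Insig1, rose, against 7.57% and 4.32% of all genes, with a median of -0.21. Without replicate 3 of shEGR2_38.9 8 fell (5.49% of all genes did) and Insig1 was not called (adjusted p = 0.297), and 0 were called with the 6 arrays alone in either direction. The call of Insig1 (adjusted p = 0.0433) was lost in 9 of 15 alternatives. Among them Mvd and Sqle, enzymes of the cholesterol pathway, fell by 0.47 (SE 0.09, adjusted p = 0.0011) and 0.43 (SE 0.09, adjusted p = 0.0038). Plin2, the coat protein gene of lipid droplets, rose by 0.67 (SE 0.13, adjusted p = 0.0017) in all alternatives. Of 9 Nrf2 targets, which answer oxidative stress, 4 fell and 0 rose, against 7.57% of all genes that fell, with a median of -0.23, and 1 fell with the 6 arrays alone (1.52% of all genes). Hmox1, heme oxygenase 1, read 10.99, 10.84 and 10.80 against 11.52, 11.48 and 11.48 and fell by 0.61 (SE 0.09, adjusted p = 6.0e-05). Both hairpins lay above PLKO, by 1.18 and 1.79 (adjusted p = 2.1e-09 and 1.0e-11).

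**Figure D4:**
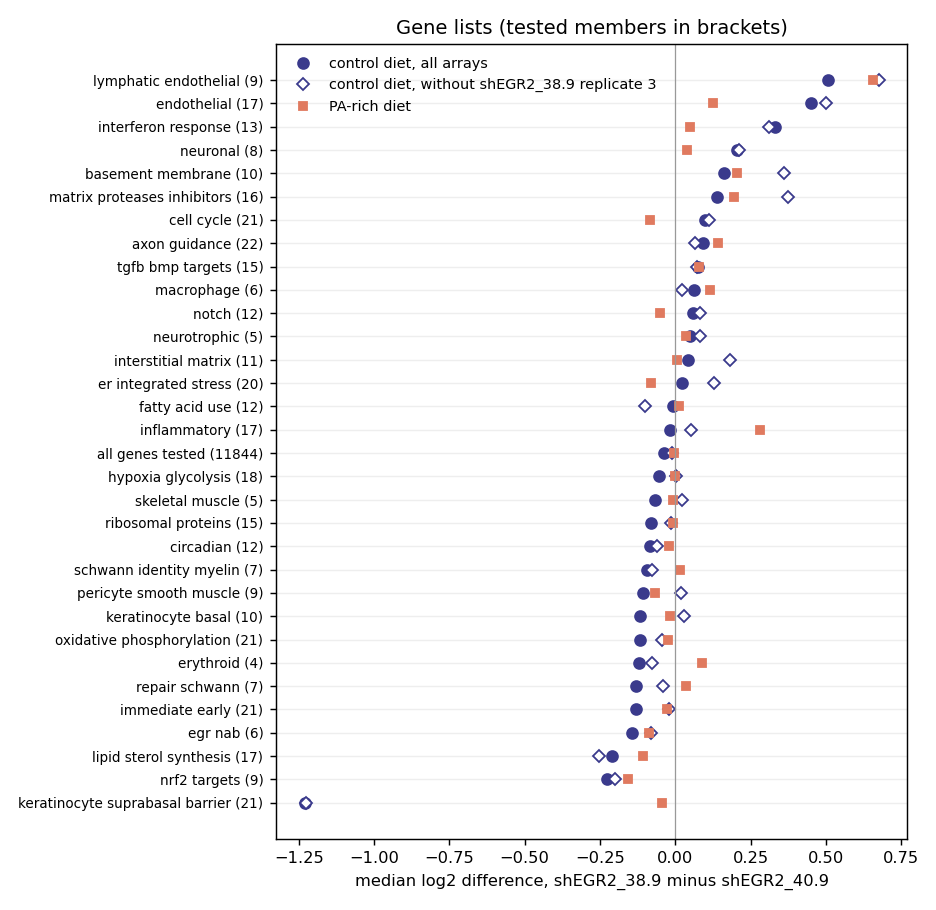
Median log2 difference between the hairpins over the tested members of each gene list with 4 or more, for the control diet with all arrays (filled circles), without replicate 3 of shEGR2_38.9 (open diamonds) and for the PA-rich diet (squares). On the control diet the barrier list sits at -1.23 with and without the replicate, the lymphatic and endothelial lists at 0.51 and 0.45, and all genes at -0.04; on the PA-rich diet the barrier list sits at -0.05.

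The same hairpins on the PA-rich diet used 6 other arrays, with each hairpin in the same scan batches as on the control diet. On the PA-rich diet 593 genes were called (5.01%), 331 higher (2.79%) and 262 lower (2.21%) with shEGR2_38.9. With scan batch as a block 363 were called. Of the 915 genes called in both control-diet fits, 112 were called on the PA-rich diet in the same direction, 12.2% of the 915 and 18.9% of the 593, and 28 in the opposite direction. The difference of the hairpin differences, control minus PA-rich diet, was called for 660 genes (5.57%), 214 higher (1.81%) and 446 lower (3.77%). Of the 660, 350 were among the 915, which were picked on a part of that difference.

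The barrier list as a whole differed less between the hairpins on the PA-rich diet. On that diet 1 of the 21 tested members was called by limma, Tgm3, which is near the 5.01% of all genes called, and the median was -0.05. Before adjustment 9 of the 21 had a p under 0.05, so the single call does not show that the list was unchanged. The difference between diets was called for 13 members, all negative, against 3.77% of all genes with a negative call. Dsc1 read 8.24, 8.01 and 8.33 with shEGR2_38.9 and 8.23, 8.73 and 8.90 with shEGR2_40.9 on the PA-rich diet, groups that overlapped, and the diets differed by -2.12 (SE 0.28, adjusted p = 4.6e-05). The mean level of all 23 members was 9.94 to 10.16 with shEGR2_38.9 and 9.95 to 10.21 with shEGR2_40.9 on that diet. The interferon list had 0 calls there with limma (2 members had an unadjusted p under 0.05), and the difference between diets was called as positive for 3 members, Rsad2, Oasl1 and Ifih1 (1.81% of all genes). Both hairpins had an Oasl1 mean under the dim filter level of 6.27 on the PA-rich diet. Rsad2 read 10.71, 10.72 and 10.41 against 10.30, 10.45 and 10.31 on the PA-rich diet.

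A few genes described above were called as higher with shEGR2_38.9 on both diets, and they were picked after their values were seen. Cdh5 was 0.56 higher with shEGR2_38.9 on the PA-rich diet (adjusted p = 0.0411), Reln 0.84 (adjusted p = 0.0184), Mrc1 1.10 (adjusted p = 2.1e-04), Scn3a 0.89 (adjusted p = 0.0108) and Gap43 1.12 (adjusted p = 1.1e-04). The differences between diets were 0.13, 0.14, -0.08, 0.30 and -0.22, and none of the 5 was called (adjusted p = 0.823, 0.85, 0.895, 0.643 and 0.666), which does not show that they were equal. The Scn3a mean of shEGR2_40.9 on the PA-rich diet, 5.66, was under the dim filter level, so its difference there rests on a level near the floor. These genes do not stand for the vessel markers: of 17 endothelial markers tested 2 rose on the PA-rich diet, Cdh5 and Flt1, and 0 fell, against 2.79% of all genes that rose, and the median was 0.13. Notch4, Dll4, Pgf and Plxnd1 differed by 0.02, 0.17, 0.26 and 0.24 on the PA-rich diet, with a called difference between diets of 0.94 (adjusted p = 0.0281), 0.49 (adjusted p = 0.0296), 0.78 (adjusted p = 0.0305) and 0.53 (adjusted p = 0.0079). On the PA-rich diet 5 of the 9 lymphatic markers rose, against 2.79% of all genes, and their median difference was 0.66.

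A few genes were called in opposite directions on the 2 diets. Rgs4, a regulator of G protein signalling, was 1.10 higher with shEGR2_38.9 on the control diet (7.42, 8.21 and 8.51 against 7.03, 6.74 and 7.07; adjusted p = 0.0013) and 1.12 lower on the PA-rich diet (difference -1.12; 6.06, 5.93 and 6.16 against 6.83, 6.95 and 7.75; adjusted p = 0.002). The PA-rich shEGR2_38.9 mean of Rgs4, 6.05, was under the dim filter level. Il33, an epithelial alarm cytokine, was 0.71 lower (difference -0.71, adjusted p = 0.0037) and 0.66 higher (adjusted p = 0.0128), and Ccl20, a chemokine of inflamed epithelium, differed by -0.42 and 0.43 (adjusted p = 9.4e-04 and 0.0017). Klf2, a transcription factor of vessels under flow, differed by 0.59 (adjusted p = 0.002) and -0.51 (adjusted p = 0.0127). For Hmox1 the direction was shared and the PA-rich difference was the larger, -1.86 against -0.61, with 9.29, 9.49 and 9.18 against 11.12, 11.17 and 11.26. Of 17 inflammatory genes tested, 2 rose and 3 fell on the control diet (4.32% and 7.57% of all genes), while 8 rose and 0 fell on the PA-rich diet (2.79% and 2.21%), and the difference between diets was called as negative for 5 (3.77% of all genes).

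**Figure D5:**
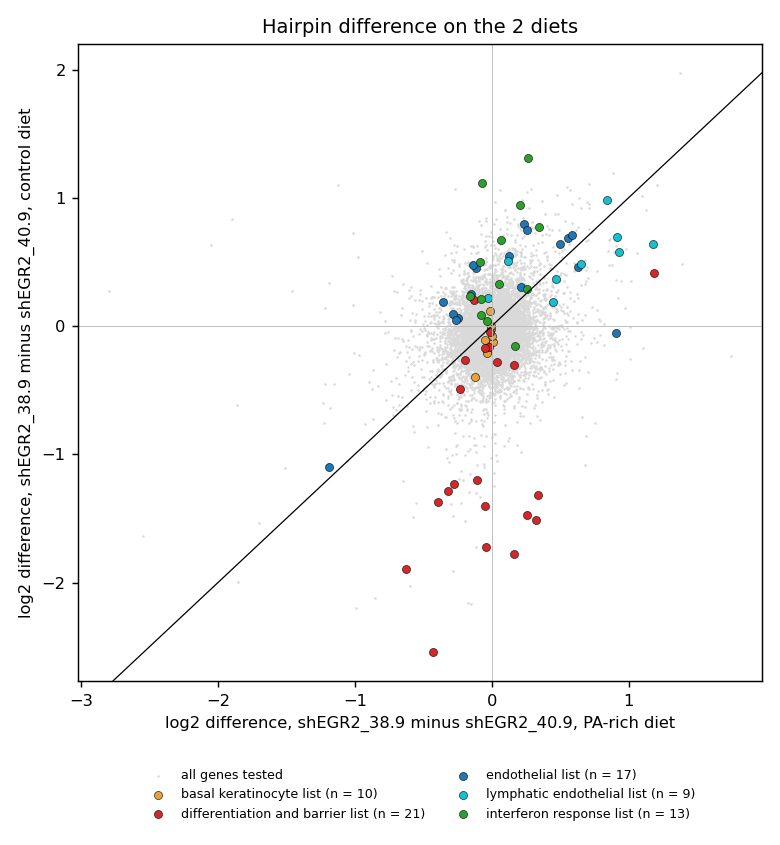
Log2 difference between the hairpins on the PA-rich diet (horizontal) against the control diet (vertical) for all 11844 genes (grey) and for 5 lists in colour; the line marks equal values, and the 2 axes share no arrays. The 15 called barrier genes lie below zero on the vertical axis and around zero on the horizontal one, with Dsc1 at -2.54 and -0.43, while most lymphatic markers lie to the right of and above the origin.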

How the data were processed

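The deposited values are log2 values per probe set that the authors made with RMA (background correction, normalization between arrays and summary) in affy, per the submitters' processing notes (versions not given in the sources used here). All 24 arrays (8 groups of 3) were used, and their number limits precision. Of 45141 probe sets, the 28898 with 1 gene symbol gave 17097 genes, each by its probe set of highest mean. Genes with a mean under the 40th percentile (6.27) were left out, which kept 11844. limma 3.58.1 in R 4.3.3 fitted 8 group means (16 residual degrees of freedom), with moderated two-sided tests and Benjamini-Hochberg adjustment. Genes named are the 15 largest rises and falls called with and without replicate 3 of shEGR2_38.9 whose groups do not overlap, called members of 36 lists, Egr2 and Gal; the text gives examples and says where it adds others. The genes and lists were chosen with earlier results of these data known. The procedure was tested on simulated data. Alternatives were scan batch or replicate number as a block, other normalization, filter, probe set, weight and variance settings, the compared arrays alone and each array left out.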

Additional observations from a re-analysis of the deposited data

Results flagged for a closer look

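The hairpin difference itself differed between the diets for 41 of the 86 genes that the report follows. The test was limma's for the difference between diets, adjusted over all genes, and 5.57% of all genes were called. Most of the 86 were named for a called control-diet difference. That difference is part of this test, so the count cannot be set against the share of all genes. Values are the control-diet difference minus the PA-rich difference on the log2 scale, and 26 were negative and 15 positive. Among members of the barrier list the values were Dsc1 -2.12, Sdr9c7 -1.94, Sprr1b -1.83, Krt84 -1.73, Cnfn -1.69, Sprr1a -1.66, Dsg1a -1.36, Krt10 -1.27, Krt6b -1.09, Krt4 -0.98, Tgm3 -0.97, Krtdap -0.96 and Tgm1 -0.46. Among further genes with large falls on the control diet they were Alox12b -2.02, Ly6g6c -1.98, 2310011E23Rik -1.62, Prr9 -1.61, Serpinb3a -1.43, Scel -1.32, Gsta2 -1.27 and Tktl1 0.91. For Tktl1 the positive value goes with a larger fall on the PA-rich diet, and the same holds for Hmox1, at 1.25. Vessel genes gave Notch4 0.94, Pgf 0.78, Plxnd1 0.53 and Dll4 0.49, and interferon genes Oasl1 1.19, Rsad2 1.05 and Ifih1 0.61. Genes called in opposite directions on the diets gave Rgs4 2.22, Klf2 1.10, Ccl20 -0.85 and Il33 -1.37. The remaining values were Map2 -0.68, Erbb3 -0.58, Egr2 0.56, Sqle -0.59, Mvd -0.50, Plin2 0.66, Wscd1 0.78 and Tmem140 1.01. Scel, Oasl1, Rgs4, Wscd1 and Pgf had a mean under the dim filter level in at least 1 of the 4 groups compared. With the control-diet replicate 3 of shEGR2_38.9 left out, 2 of the 41 were no longer called, Krt10 (adjusted p = 0.0706) and Map2 (adjusted p = 0.0525).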

How the results depend on the processing

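No gene named here reversed a call on either diet or in the difference between diets under any alternative run, but many calls were lost. The naming rule gave 119 genes. On the control diet 56 of them lost their call with the 6 arrays alone and 47 with the replicate block in that fit. Without replicate 2 of shEGR2_40.9 30 lost it. On the control diet, against 1408 genes, a fit on the 6 arrays alone called 299, and with the replicate number as a block in that fit 387. Leaving out 1 array gave 822 to 1810, the fewest without replicate 2 of shEGR2_40.9. The lower share of calls was 49.8% after renewed quantile normalization, against 63.6%. On the PA-rich diet, against 593 genes, scan batch as a block gave 363, array weights 2055, the 6 arrays alone 1523, the replicate block 1509, and leaving out 1 array 302 to 414. For the difference between diets, against 660, array weights gave 1294, only the arrays compared 431, the replicate block in that fit 466, scan batch as a block 765, and leaving out 1 array 454 to 800. The cause of these shifts was not tested. Residuals of same-number arrays of the hairpins correlated at 0.24, 0.06 and 0.12 on the control diet. Those of arrays with different numbers correlated at -0.15 to 0.05, below all same-number values on that diet. On the PA-rich diet same-number arrays correlated at 0.15, -0.02 and 0.17 and the others at -0.18 to 0.04, so the ranges overlapped. Whether replicate numbers pair the hairpins was not tested. Within a hairpin a number marks a shared scan batch across diets. Barrier members that fell numbered 13 to 15 in every alternative run. Signal over background limits the 5253 genes left out as dim.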
